A study of Mus musculus with 8 samples.

Results

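The response of leg muscle to C26m2 colon cancer in CD2F1 mice was described from the authors' Cuffdiff comparison of cachectic with healthy muscle, of which every listed gene was used: 4832 genes of the 9166 rows in the study's 2 comparisons. The other 4334 rows belong to a second model, Balb/c mice with the breast cancer line 4T1, and serve below as a reference only. The muscle was tibialis anterior, a fast muscle of the shin, from mice aged 12 to 14 weeks. The 2 groups compared were healthy CD2F1 mice (2 libraries) and CD2F1 mice with cachexia from metastases of C26m2, a luciferase-labelled colon cancer line (2 libraries). Per the labels' protocols, the injected tumours were cut out after 2 to 3 weeks and the mice were killed at 5 weeks, once metastasis had been imaged and cachectic symptoms had appeared. The labels record injection and surgery for cachectic mice and not for healthy ones, so that effects of the procedure and of the cancer cannot be told apart. The sex of the mice and the animal behind each library are not stated, and the p-values then measure only the spread between these libraries, which may be technical. Values are the authors' FPKM (fragments counted per unit of transcript length and of library size), 1 value per group, so that none carries a spread between libraries. Genes outside the table have no value here and are not called unchanged. Members named beyond the naming rule given with the processing were picked after their values were seen.

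Cachexia is the loss of muscle, with or without loss of fat, that accompanies advanced cancer. Muscle fibres shrink when the breakdown of their proteins outpaces synthesis. The breakdown runs mainly through the ubiquitin-proteasome system, which tags single proteins and cuts them up, and through autophagy, which delivers larger pieces of the cell to the lysosome. FoxO transcription factors and the glucocorticoid receptor are known to drive many of these genes in wasting muscle, while insulin and IGF signalling restrains them.

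A gene was listed when its q-value was 0.05 or less. About 13121 genes had been tested, so the 4832 listed genes were 36.8% of them, with 2847 (21.7%) higher and 1985 (15.1%) lower in cachectic muscle. The median change was 2.197-fold among higher genes and 2.61-fold among lower genes. A 4-fold change or larger was reached by 416 of the higher and 547 of the lower genes. At the smallest p-value in the authors' deposited table, 5e-05 (q = 0.000319), were 2058 listed genes, or 42.6%. Of the genes named below without a q, Sod2, Cacnb1, Mmp14, Gys1, Krt18, Psmg2, Cyc1, Cacna1s, Mmp9, Dkc1, Vtn and Csdc2 lay near the threshold, with q between 0.0103 and 0.0484 in the authors' deposited table.

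The direction of change varied with abundance. Of 2693 abundant genes, those with 10 FPKM or more in either group, 1907 (70.8%) were higher and 786 lower. Of the 2139 less abundant genes, 940 were higher and 1199 lower. Among 289 genes that stayed under 1 FPKM, 69 were higher. At the other end, 37 genes stood above the rest in abundance, at 1000 FPKM or more, of which 23 were higher and 14 lower, but their summed level fell from 77901 to 61889 FPKM and the losers included the most abundant of the listed transcripts. Abundant muscle genes that were not listed have no value here. Just inside the abundance limit, Alpl, Fam116b and BC031781 had larger values of 10.01, 10.01 and 10.02 FPKM, and just outside it Snhg4, Rasa3 and Adal had 9.99, 9.99 and 9.98 FPKM.

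**Figure D1:**
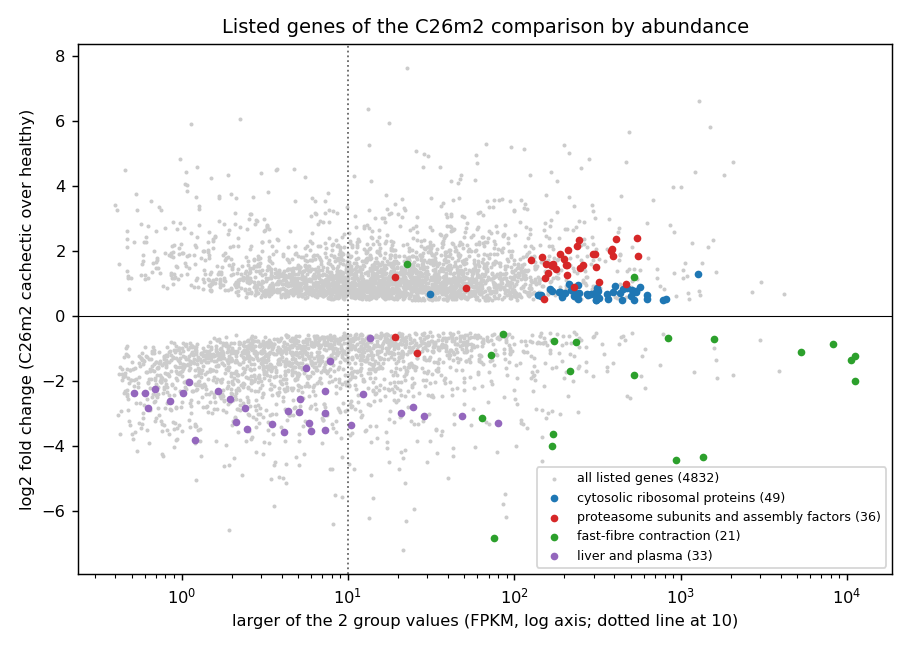
Each point is 1 listed gene of the C26m2 comparison, with the larger of its group values in FPKM on a log axis and its log2 fold change, cachectic over healthy, on the vertical axis. Fast-fibre genes (21 listed) reach 11238 FPKM and lie mostly below 0, proteasome genes (36 listed) and ribosomal protein genes (49 listed) form bands above it, and liver and plasma genes (33 listed) all lie below it, mostly at low abundance.

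The sum of FPKM over listed genes was 190055 in healthy and 226421 in cachectic muscle. Scaling both sums to be equal moved every log2 fold change by -0.25 and turned the direction of no listed gene, since the smallest absolute change listed was 0.48. Losses were concentrated and gains were spread: the 8 largest losers made up 48.6% of all FPKM lost (33391 of 68652), and the 8 largest gainers 11.4% of all FPKM gained (11992 of 105018). The largest losers were all proteins of the contractile machinery, calcium handling or glycolysis. Pvalb, the parvalbumin that speeds relaxation of fast fibres by binding calcium, went from 11238 to 2829.7 FPKM, a 3.97-fold fall. Mylpf and Myl1, the regulatory and essential light chains of fast myosin, fell from 11181 to 4713 and from 10614 to 4165 FPKM. Tnnc2, fast troponin C, fell from 8265 to 4498 FPKM, and Tpm1, the alpha tropomyosin, from 5322 to 2493 FPKM. The glycolytic enzymes Eno3 (muscle enolase) and Ldha (lactate dehydrogenase A) fell 3.21-fold and 3.51-fold, Eno3 going from 3922 to 1223 FPKM. Casq1, the calsequestrin that stores calcium in the sarcoplasmic reticulum of fast fibres, had the steepest fall of the 8, from 1355 to 66.4 FPKM.

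The gainers were of other kinds. The atrophy ubiquitin ligase Trim63 (MuRF1) gained most, from 77.4 to 2054 FPKM, a 26.5-fold rise. Next came Pdk4, the kinase that keeps pyruvate from oxidation by inhibiting pyruvate dehydrogenase, from 89.7 to 1819.9 FPKM. Of the zinc-binding metallothioneins, Mt1 rose from 26.6 to 1507 FPKM and Mt2 from 13.2 to 1284 FPKM. The polyubiquitin gene Ubb rose from 311 to 1562 FPKM, and Fam134b, the receptor that feeds endoplasmic reticulum into autophagy, rose from 56.5 to 1217 FPKM. Myoglobin (Mb) gained 1537 FPKM over a high start, from 2647 to 4184 FPKM, a 1.58-fold change whose q in the authors' deposited table was 0.0223. The mitochondrial ribosomal RNA mt-Rnr1 went from 1464 to 3049 FPKM; ribosomal RNA carries little poly-A, and these libraries were made by poly-A selection.

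**Figure D2:**
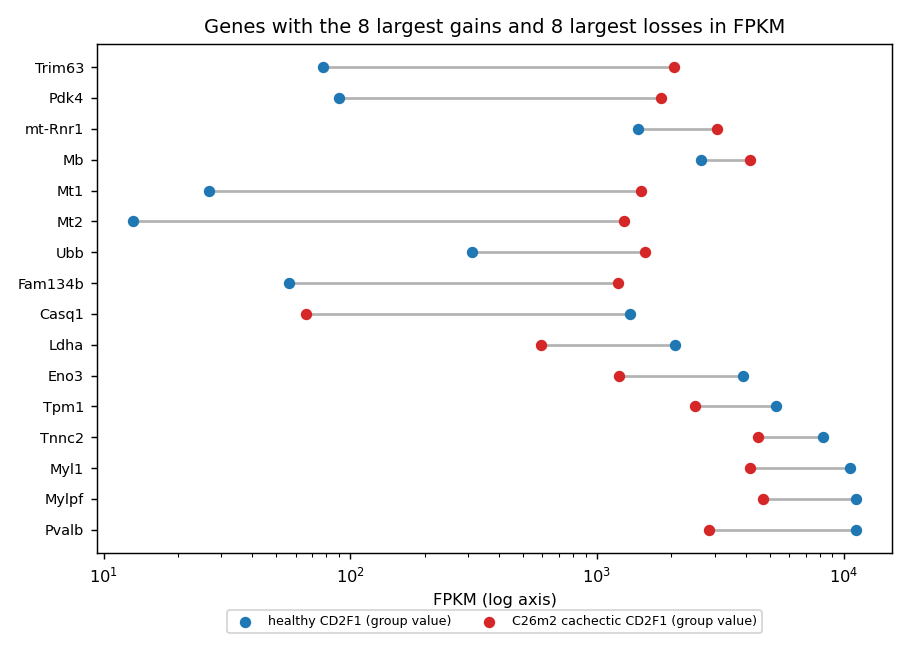
Group values in FPKM (log axis) of the 8 genes with the largest gains and the 8 with the largest losses, healthy CD2F1 in blue and C26m2 cachectic in red, 1 authors' value per group. Mt2 moves furthest among the gainers, from 13.2 to 1284 FPKM, and Casq1 furthest among the losers, from 1355 to 66.4 FPKM.

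Among abundant genes Fam65c had the steepest rise, 198-fold, from 0.114 to 22.5 FPKM, and Doc2b, a calcium sensor of vesicle release, 83.2-fold, from 0.159 to 13.2 FPKM, both from levels near 0. Acot1, which cleaves fatty acyl-CoA in the cytosol, rose from 0.288 to 17.6 FPKM. Il6ra, the IL-6 receptor subunit, rose from 1.73 to 67.6 FPKM, and Slc39a14 (ZIP14), an importer of zinc and iron, from 5.17 to 198 FPKM. Ampd3, an AMP deaminase, rose 36.4-fold, from 2.61 to 94.9 FPKM, while Ampd1, the isoform typical of adult muscle, fell from 497 to 86.03 FPKM. The autophagy gene 8430408G22Rik (now Depp1) rose from 3.23 to 114 FPKM. The steepest falls were Lrrc38, an auxiliary subunit of potassium channels, going from 21.4 to 0.145 FPKM, and Ky, a protease-like protein of the sarcomere's Z-disc region, going from 75.9 to 0.669 FPKM. The modifier of potassium channels Kcng4 fell from 24.8 to 0.401 FPKM, Plcd4, a phospholipase C, fell from 22.3 to 0.279 FPKM, and Tmem233 fell from 89.3 to 1.24 FPKM. Fibromodulin (Fmod) and the collagen gene Col1a1, both of connective tissue, fell 44.9-fold and 31.5-fold. Retnla, a product of alternatively activated macrophages, fell from 14.2 to 0.2902 FPKM, with q = 0.0358 in the authors' deposited table.

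**Figure D3:**
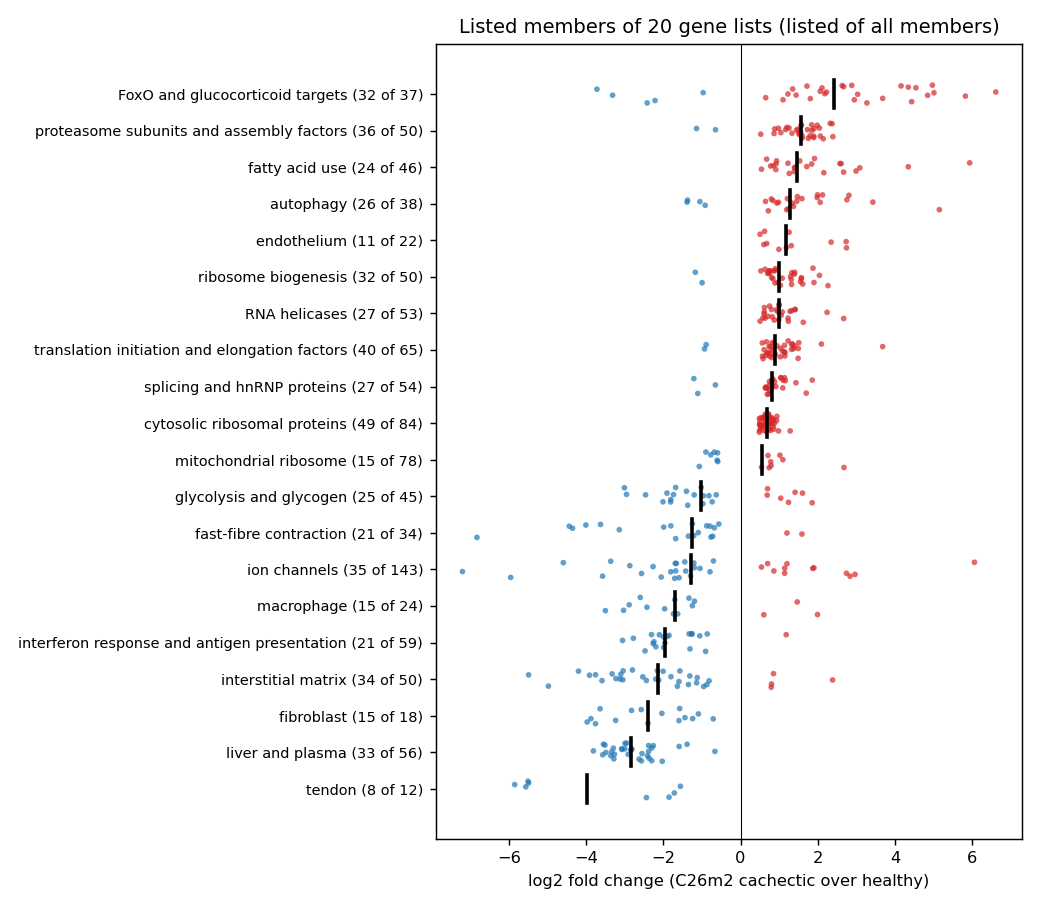
Log2 fold change, cachectic over healthy, of each listed member of 20 of the 52 gene lists, picked by hand (red higher, blue lower, black bar the median of the listed members). The number listed of all members is in brackets. Among the lists shown, medians run from 2.43 for FoxO and glucocorticoid targets to -3.96 for tendon markers. Over all 4832 listed genes the median was 0.72. Lists not shown include neutrophil markers, with a higher median of 2.71, and several that were split by direction. Members that were not listed have no value.

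Loss of fast-fibre transcripts was broad. Of 34 fast-fibre genes 21 were listed, 2 higher and 19 lower, with a median log2 fold change of -1.25 beside 0.72 over all listed genes, and their summed level fell from 53348 to 21417 FPKM. In bulk muscle, fewer fibres of a type and less of a transcript per fibre cannot be told apart. Beyond the light chains, Mylk4, a myosin light chain kinase family member of muscle, fell from 932 to 43.1 FPKM. The triad, where the fibre's electrical signal releases calcium, lost many parts: the junction protein Jph2 fell from 172 to 13.9 FPKM, Sypl2 (mitsugumin 29) from 168 to 10.5 FPKM, the coupling adaptor Stac3 from 216 to 67.4 FPKM, and the calcium channel subunit Cacnb1 from 71.96 to 31.1 FPKM. The channel's pore subunit Cacna1s fell 1.73-fold, whereas its gamma subunit Cacng1, which dampens the current, rose from 229 to 527 FPKM. Smtnl1, a smoothelin-like protein, was the other riser, from 7.51 to 22.6 FPKM. Fast muscle alpha-actinin, Actn3, fell from 1581 to 960.5 FPKM, with q = 0.0169 in the authors' deposited table.

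The tissue label was set beside 15 muscle genes, which are typical of fast fibres except for Myh7, the slow myosin heavy chain. A gene has a value here only when it was called as changed. These genes thus describe the tissue, and they could not contradict its label or separate fast from slow muscle. Of these, Pvalb, Mylpf, Tnnc2, Eno3 and Actn3 were listed, and their healthy levels lay between 1581 and 11238 FPKM. The other 10, among them Acta1, Ckm, the fast myosin heavy chains Myh1, Myh2 and Myh4, and Myh7, were not listed and so have no value. The slow-fibre list gave 7 of 20 listed (35.0%, near the 36.8% of all genes tested), 5 higher and 2 lower. Ankrd2, a stretch-responsive protein of the I-band, rose from 11.97 to 64.8 FPKM, and Myoz2 from 45.9 to 94.2 FPKM. The slow light chains parted, Myl3 rising 1.72-fold, with q = 0.0318 in the authors' deposited table, and Myl2 falling from 22.4 to 7.08 FPKM. No uniform change of slow-fibre genes was seen among the listed members.

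Of 143 ion channel genes 35 were listed, or 24.5% beside 36.8% of all genes tested. Of these 12 were higher and 23 lower, the latter 16.1% of the list beside 15.1% of all genes tested, with a median log2 fold change of -1.30. The chloride channel Clcn1, which stabilises the resting fibre, fell from 100.3 to 16.97 FPKM, and the sodium channel subunit Scn4b fell from 132 to 37.8 FPKM. Among the risers, the inward rectifier Kcnj2 went from 13.4 to 29.5 FPKM and Kcnk5, a leak channel, from 0.357 to 2.79 FPKM. At the nerve-muscle synapse, acetylcholinesterase (Ache) fell from 23.9 to 2.54 FPKM and Chrne, the adult acetylcholine receptor subunit, from 15.4 to 3.19 FPKM. Runx1, a factor induced in denervated fibres, rose from 0.413 to 4.82 FPKM, and the myogenic factor Myog from 2.07 to 4.55 FPKM. The receptor subunit genes Chrna1 and Chrng, known to rise in denervated muscle, were not listed. Of 28 genes of the synapse and denervation, 13 entries were listed, 6 higher and 7 lower, Hdac4 being entered under 2 gene identifiers. Myod1, which directs the fast programme, fell from 16.7 to 3.01 FPKM, and Mef2c from 104 to 16.1 FPKM, while Mef2a rose from 32.5 to 59.3 FPKM.

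Fuel genes moved apart by pathway. Of 45 glycolysis and glycogen genes 25 were listed, 7 higher and 18 lower (median log2 fold change -1.02), and their summed level fell from 18506 to 9537 FPKM. Among the enzymes that fell were Pfkm (phosphofructokinase) from 1582 to 805 FPKM, Tpi1 from 1209 to 363 FPKM, Pgam2 from 1662 to 444 FPKM and Pkm2 (pyruvate kinase) from 1628 to 631 FPKM. The glycerol phosphate shuttle enzyme Gpd1 fell from 241 to 31.1 FPKM. Phosphorylase kinase, which switches on glycogen breakdown, had 3 subunit genes listed, all lower: Phka1 from 189 to 23.6 FPKM, Phkg1 from 226 to 56.1 FPKM and Phkb from 245 to 126 FPKM. Pgm2 (the phosphoglucomutase now called Pgm1) fell from 476 to 86.6 FPKM. Several genes of glycogen synthesis were higher instead, among them Ugp2, which makes UDP-glucose, from 388 to 1032 FPKM, and the phosphatase subunit Ppp1r3c from 65.7 to 238 FPKM. Glycogen synthase Gys1 rose 1.61-fold, and glucose-6-phosphate isomerase Gpi1 rose from 460.0 to 1088 FPKM. The lactate exporter Slc16a3 fell from 195 to 73.7 FPKM and Slc16a1, which also carries lactate inward, rose from 18.2 to 37.4 FPKM.

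All 24 listed members of a 46-gene list of fatty acid use were higher, with a median log2 fold change of 1.47 and a summed level that went from 1949 to 7044 FPKM. They ran from fat stores to the mitochondrion. Pnpla2, the lipase that opens lipid droplets, rose from 153 to 913 FPKM, and the droplet coats Plin4 and Plin5 rose from 46.4 to 369 and from 6.88 to 41.8 FPKM. Uptake genes rose too, with Cd36 going from 114 to 432 FPKM, Lpl going from 91.00 to 299 FPKM and the binding protein Fabp3 going from 214 to 569 FPKM. Mlycd, which removes the malonyl-CoA that blocks mitochondrial import of fatty acids, rose from 36.2 to 161 FPKM, and the uncoupling protein gene Ucp3 from 45.4 to 163 FPKM. The dehydrogenases of beta-oxidation rose less, Acadl 2.62-fold, Acadvl 1.91-fold and Acadm 1.598-fold. Fatty acid and cholesterol synthesis was split, 7 higher (18.9%) and 11 lower (29.7%) of 37, beside 21.7% and 15.1% of all genes tested. The desaturase Scd1 fell from 18.9 to 1.98 FPKM and the regulator Srebf1 from 24.5 to 8.27 FPKM. The acyltransferase Gpam fell from 64.1 to 14.4 FPKM. Fdft1 (squalene synthase) rose from 35.2 to 234 FPKM and Dgat2, which makes triglyceride, from 15.3 to 75.8 FPKM.

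Mitochondrial genes were listed sparsely. Of 87 respiratory chain and ATP synthase genes 8 were listed, 5 higher and 3 lower, a share well below the 36.8% of all genes tested. Cox8a, a subunit of cytochrome oxidase, rose 2.26-fold, and Cyc1 of complex III fell 1.45-fold. Of 78 mitochondrial ribosomal protein genes 15 were listed, 8 higher and 7 lower; Mrpl41 rose from 19.4 to 124 FPKM, and the other risers changed by 2.14-fold or less. Ppargc1a (PGC-1alpha), which drives mitochondrial biogenesis, rose from 7.74 to 27.4 FPKM, while its relative Ppargc1b fell from 1.86 to 0.2402 FPKM. Pdp1, the phosphatase that reactivates pyruvate dehydrogenase and so works against Pdk4, fell from 54.8 to 5.31 FPKM. Gdap1, a protein of the mitochondrial outer membrane whose loss causes Charcot-Marie-Tooth neuropathy in people, fell from 8.09 to 0.0967 FPKM.

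Protein breakdown genes rose widely. The table held 36 of 50 proteasome genes, 34 of them higher and 2 lower, with a median change of 2.98-fold, and their summed level went from 2776 to 8477 FPKM. Both parts of the particle took part. In the 20S core, Psma7 rose from 104 to 546 FPKM and Psmb4 from 154 to 552 FPKM. In the 19S cap, the ubiquitin receptor Psmd4 rose from 79.1 to 409 FPKM, the ATPase Psmc4 from 48.9 to 244 FPKM and the scaffold Psmd2 from 95.8 to 379 FPKM. The exceptions were Psme1, a subunit of the interferon-induced 11S cap, which fell from 26.04 to 11.8 FPKM, and the assembly chaperone Psmg2, which fell 1.57-fold. The immune forms of the core subunits, Psmb8, Psmb9 and Psmb10, were not listed.

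Ubiquitin itself and the enzymes around it followed in part. The polyubiquitin gene Ubb rose 5.03-fold. Of 41 genes of ubiquitin and its conjugation 20 were listed, 15 higher (36.6%, beside 21.7% of all genes tested) and 5 lower. Of 16 atrophy ligases 7 were listed (43.8%, beside 36.8% of all genes tested), 6 higher. Fbxo32 (atrogin-1) rose from 64.04 to 1006 FPKM, Fbxo30 (MUSA1) from 3.65 to 15.5 FPKM and Cblb, which targets the insulin receptor substrate, from 4.11 to 10.3 FPKM, while Trim32 fell from 4.41 to 1.56 FPKM. Of 64 deubiquitinases 17 were listed, 16 of them higher, and these 25% lie near the 21.7% of all genes tested that were higher. Usp14, which acts on the proteasome, rose from 24.6 to 77.4 FPKM, and Usp3, a histone deubiquitinase, from 8.46 to 50.8 FPKM.

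Autophagy genes were listed in 26 of 38 cases, 22 higher and 4 lower, with a median change of 2.44-fold. Of the initiating kinases, Ulk1 rose from 24.5 to 96.9 FPKM, while its paralog Ulk2 fell from 36.01 to 19.1 FPKM. Of the membrane-bound tags, Gabarapl1 rose from 27.1 to 291 FPKM, Gabarap from 119 to 273 FPKM and Map1lc3a from 164 to 294 FPKM. Cargo receptors rose at high abundance: Sqstm1 (p62) from 335 to 1461 FPKM, the mitophagy receptors Bnip3 from 123 to 861 FPKM and Bnip3l from 74.4 to 311 FPKM, and Optn from 25.1 to 75.5 FPKM. Stbd1, which brings glycogen to autophagy, fell from 21.4 to 8.197 FPKM. In the lysosome, the proteases Ctsl and Ctsd rose from 57.1 to 900.0 and from 343 to 1060.3 FPKM, and Atp6v1h, a subunit of the proton pump, from 6.99 to 38.6 FPKM. The lysosome list gave 10 higher of 44 (22.7%, beside 21.7% of all genes tested). Its 4 members that fell were all cathepsins, Ctsc, Ctss, Ctsk and Ctso, of which Ctss and Ctsk are known from macrophages and osteoclasts.

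Genes of protein synthesis were higher as well. Of 84 cytosolic ribosomal protein genes 49 were listed, all of them higher, with a narrow spread around a median of 1.61-fold and a summed level that rose from 10761 to 17565 FPKM. Rps27 rose most, from 519.7 to 1266 FPKM, and was the only one past 2-fold. Rpl11 and Rpl5, which form a complex with 5S ribosomal RNA, rose 1.98-fold and 1.92-fold. These genes have many near-identical pseudogenes, and the sources do not give how reads were shared among copies, so single values are uncertain. Ribosome biogenesis gave 30 higher and 2 lower of 50, among them Tsr1 from 12.8 to 61.7 FPKM, nucleostemin (Gnl3) from 9.82 to 40.5 FPKM and nucleophosmin (Npm1) from 71.99 to 190.2 FPKM, while Dkc1, the pseudouridine synthase dyskerin, fell from 20.8 to 9.25 FPKM.

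Translation factors followed, with 38 higher and 2 lower of 65 and a median of 1.85-fold. Subunits of eIF3, which docks the small ribosomal subunit to messenger RNA, were led by Eif3a going from 19.9 to 84.97 FPKM. The start-site factor Eif1 rose from 639.8 to 1631 FPKM and the helicase Eif4a1 from 47.3 to 133 FPKM. Factors at the cap of the messenger moved apart: Eif4e, which binds the cap, fell from 56.1 to 29.4 FPKM, and Eif4ebp1, which sequesters Eif4e when mTOR is inactive, rose from 34.3 to 439 FPKM. Of the tRNA synthetases 6 of 20 were listed, all higher, with a median of 1.48-fold. These 30% lie below the 36.8% of all genes tested that were listed and above the 21.7% that were higher. Vars and Eprs rose 3.46-fold and 2.42-fold. Sars and Lars rose 1.48-fold and 1.47-fold, with q = 0.0451 and 0.0276 in the authors' deposited table. All 27 listed RNA helicases of 53 were higher, Ddx56 most, from 9.35 to 59.6 FPKM, and the nucleolar Ddx21 from 8.88 to 41.99 FPKM. The Y-linked Ddx3y and Eif2s3y were among the helicases and translation factors listed as higher, the first from 20.8 to 43.98 and the second from 44.7 to 77.9 FPKM. Such genes also vary with the share of males in a group. The sex of the mice is not stated, and its part in these values was not tested. Splicing and hnRNP genes were higher in 24 and lower in 3 of 54, with Hnrnpf going from 14.7 to 53.3 FPKM and Hnrnpa1 going from 45.5 to 148 FPKM.

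Chaperones were higher in 25 and lower in 4 of 89, so that 32.6% were listed and 28.1% higher. The small heat shock proteins parted: Hspb7 and Hspb1, known to guard the sarcomere under strain, rose from 57.1 to 679 and from 64.1 to 295 FPKM, whereas Hspb2 and Hspb3, which form a complex with each other in muscle, fell from 48.6 to 15.2 and from 22.8 to 4.598 FPKM. Subunits of the TRiC folding ring, Cct2, Cct3 and Cct4, rose 2.54-fold, 1.94-fold and 2.18-fold. Of 35 genes of ATF4 and endoplasmic reticulum stress 14 were listed (40.0%, near the share of all genes tested), 10 higher and 4 lower. Atf4 rose from 108 to 350.2 FPKM and Ppp1r15a (GADD34), which restores translation after stress, from 8.13 to 94.6 FPKM. The serine and folate enzymes Psph and Mthfd2, usually counted as ATF4 targets, fell 3.86-fold and 2.898-fold.

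Targets of FoxO factors and glucocorticoids had the highest median of the lists that were not cell markers, 2.43 on the log2 scale. Of 37 such genes 32 were listed, 27 higher and 5 lower. The cell-cycle inhibitor Cdkn1a (p21) rose from 6.602 to 212 FPKM, the glucocorticoid receptor co-chaperone Fkbp5 from 7.73 to 167 FPKM, the transcription factor Cebpd from 10.1 to 180.0 FPKM and Klf15 from 14.6 to 108 FPKM. Foxo1 and Foxo3 themselves rose from 4.81 to 39.4 and from 4.73 to 21.4 FPKM. The 5 that fell were Amd1 and Smox of polyamine metabolism, the repressor Bcl6, Sesn3 and the phosphatase Dusp1; Amd1 went from 147 to 11.2 FPKM, and Smox from 113 to 11.4 FPKM. These genes are listed among FoxO or glucocorticoid targets from other settings, and no binding was measured here. The list itself was chosen with earlier results of these data known, so that its median and rank are descriptions only. Mt1 and Mt2 are also on the metal list, and Pdk4 on the fatty acid list.

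Growth signalling genes were higher in 17 (40.5%) and lower in 9 (21.4%) of 42, beside 21.7% and 15.1% of all genes tested. Genes known to restrain mTOR moved in both directions. Ddit4 (REDD1) rose from 9.73 to 279 FPKM, Sesn1 from 10.8 to 251 FPKM and Tsc1 from 9.79 to 27.2 FPKM, whereas Ddit4l fell from 186 to 84.5 FPKM, Deptor from 6.98 to 2.94 FPKM and Sesn3 from 0.909 to 0.196 FPKM. The kinase Akt1 rose, from 24.1 to 164 FPKM, as did the receptors Insr from 10.1 to 25.7 FPKM and Igf1r from 0.939 to 2.45 FPKM, and the adaptor Irs2 from 2.29 to 22.1 FPKM. Igf1 fell from 2.37 to 0.7204 FPKM, with q = 0.0401 in the authors' deposited table, and the binding protein Igfbp5 fell from 103 to 6.41 FPKM. Among TGF-beta, activin and BMP genes 13 were higher (25.5%) and 10 lower (19.6%) of 51, beside the same 21.7% and 15.1%. The activin subunit Inhbb rose from 0.165 to 3.69 FPKM and the corepressor Tgif1 from 3.48 to 36.2 FPKM. The type I receptor Acvr1b rose from 27.9 to 81.6 FPKM. Myostatin (Mstn), the muscle-made brake on growth, rose from 27.00 to 49.03 FPKM, and its relative Gdf11 fell from 1.79 to 0.296 FPKM.

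Clock genes were higher in 12 and lower in 3 of 24. Of the activating arm, Arntl (Bmal1) rose from 1.76 to 19.1 FPKM and Clock from 2.23 to 5.83 FPKM. Of the repressors, Per1 and Cry2 rose from 16.4 to 76.5 and from 14.05 to 68.1 FPKM, Per3 fell from 12.04 to 4.89 FPKM, and Bhlhe41 (DEC2) fell from 19.5 to 3.105 FPKM. Gm129 (Ciart), a repressor of the activating arm, rose from 6.19 to 27.7 FPKM. The time of day at which muscles were taken is not given in the labels, so that a clock shift and a difference in sampling time cannot be told apart. The E-box CACGTG, the site that Clock and Bmal1 are known to bind, was looked for on both strands in promoters running from 250 bases before to 50 bases after the start. It was found in 3 of 13 listed clock genes with a promoter entry (23.1%) and in 8.09% of 27025 genes. These 3 promoters are shown, as stretches 5′ to 3′ on the gene's strand (RefSeq, build GRCm38.p6), because they carry the same letters in genes that moved in both directions; capitals mark the E-box.
Bhlhe41, chr6:145865421-145865603, minus strand: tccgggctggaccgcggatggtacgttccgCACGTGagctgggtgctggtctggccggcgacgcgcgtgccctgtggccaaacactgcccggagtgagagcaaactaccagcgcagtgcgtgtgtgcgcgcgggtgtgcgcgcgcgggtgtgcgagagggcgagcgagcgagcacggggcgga
Per1, chr11:69098753-69098948, plus strand: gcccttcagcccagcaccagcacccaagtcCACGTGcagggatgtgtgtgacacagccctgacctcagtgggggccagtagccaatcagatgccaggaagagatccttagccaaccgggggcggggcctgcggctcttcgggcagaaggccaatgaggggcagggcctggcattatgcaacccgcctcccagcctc
Gm129, chr3:95882229-95882348, minus strand: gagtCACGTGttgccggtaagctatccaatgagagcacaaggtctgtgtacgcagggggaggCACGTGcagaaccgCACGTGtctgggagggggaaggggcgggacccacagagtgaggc
Bhlhe41 and Per1 have 1 E-box in the stretch and Gm129 has 3. The stretches differ in length (183, 196 and 120 bases) and do not show the whole window, so these counts cannot be compared. Bhlhe41 fell, and Per1 and Gm129 rose. A match of letters is a description and does not show that a factor bound. The list was chosen for clock genes, so that its higher share of E-boxes may follow from that choice alone.

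Metal genes included some of the largest changes. Beside Mt1, Mt2 and Slc39a14, Hamp2, a hepcidin gene, rose from 9.67 to 492 FPKM. The iron exporter Slc40a1 (ferroportin) rose from 13.7 to 33.4 FPKM. The transferrin receptor Tfrc fell from 31.1 to 2.17 FPKM and the ferrireductase Steap3 from 11.5 to 2.12 FPKM, while the ferritin light chain Ftl1 rose from 81.7 to 182 FPKM. Hfe2 (hemojuvelin), which is abundant in muscle, fell from 269 to 100.2 FPKM. The metal list as a whole gave 10 higher (30.3%) and 7 lower (21.2%) of 33, beside 21.7% and 15.1% of all genes tested. TGCNCNC, a loose form of the metal response element core with N as any base, was found in 8 of 11 of its promoters (72.7%) and in 53.6% of all promoters. The list was chosen for metal genes, so that a higher share may follow from that choice alone. Genes of the oxidative stress response were higher in 18 and lower in 5 of 39, with Gclm of glutathione synthesis going from 15.4 to 85.7 FPKM, Sod1 going from 187 to 638 FPKM and the mitochondrial Sod2 falling from 142 to 92.2 FPKM.

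The IL-6 and acute-phase list was split, 12 higher (28.6%) and 8 lower (19.0%) of 42, beside 21.7% and 15.1% of all genes tested. Among its signalling members, Il6ra rose 39.1-fold, the oncostatin M receptor Osmr from 2.27 to 8.995 FPKM and Stat3 from 13.9 to 40.9 FPKM. The protease inhibitor Serpina3n rose from 2.29 to 59.5 FPKM and lipocalin 2 (Lcn2) from 2.39 to 48.1 FPKM. The 8 that fell included 5 genes made mainly in liver, Hp, Hpx, Fga, Fgb and Fgg. All 33 listed liver and plasma genes fell, as given below, and a carry-over of liver RNA into healthy libraries was not tested. Socs3, the feedback inhibitor of IL-6 signalling, was not listed. In the NF-kB list 10 were higher (27.0%, beside 21.7% of all genes tested) and 2 lower of 37. Tnfrsf12a (Fn14), the TWEAK receptor, rose from 4.39 to 26.1 FPKM, and the inhibitors Nfkbia and Nfkbib rose from 11.5 to 37.9 and from 14.4 to 59.2 FPKM.

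Connective tissue transcripts fell. Of 50 interstitial matrix genes 34 were listed, 4 higher and 30 lower, with a median of -2.14 on the log2 scale and a summed level that went from 927 to 323 FPKM. The fibrillar collagens fell far, Col1a2 from 78.9 to 4.302 FPKM and Col3a1 from 20.4 to 2.38 FPKM, and the microfibril collagens Col6a1, Col6a2 and Col6a3 fell 8.23-fold, 10.02-fold and 12.03-fold. Small proteoglycans fell to different degrees, from decorin (Dcn), from 243 to 80.4 FPKM, to lumican (Lum), from 14.9 to 1.101 FPKM. Serpinh1, the collagen chaperone, fell from 13.1 to 5.26 FPKM. The 4 that rose were the crosslinking enzyme Lox, from 3.93 to 7.096 FPKM, the disulphide isomerase P4hb, and the proteases Mmp14 and Mmp9. Basement membrane genes were mixed (3 higher and 3 lower of 23, so that 26.1% were listed), Col4a1 rising from 9.03 to 18.8 FPKM and perlecan (Hspg2) falling from 21.04 to 8.98 FPKM, the latter with q = 0.0496 in the authors' deposited table.

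Markers of fibroblasts and of tendon fell with the matrix genes. All 15 listed of 18 fibroblast markers were lower, with a summed level of 644 FPKM in healthy and 219 FPKM in cachectic muscle, and all 8 listed of 12 tendon markers were lower, 189 against 22.3 FPKM. Pdgfra, the receptor that defines the interstitial fibroblast, fell from 2.16 to 1.02 FPKM, and the adventitial marker Pi16 from 17.2 to 1.17 FPKM. Tnmd (tenomodulin) fell from 9.23 to 0.196 FPKM and Comp, a tendon and cartilage protein, from 8.35 to 0.184 FPKM. Dcn and Lum are on both the matrix and fibroblast lists, and Fmod and Thbs4 on both the matrix and tendon lists. The part of these cells in the matrix result was not tested. Endothelial markers went the other way: all 11 listed of 22 were higher, with a summed level of 115 against 324 FPKM. Cldn5, the endothelial tight junction protein, rose from 5.63 to 28.6 FPKM, Pecam1 from 19.03 to 43.3 FPKM and 1190002H23Rik (now Rgcc) from 17.6 to 117 FPKM, while Cdh5 rose 1.42-fold, with q = 0.0409 in the authors' deposited table.

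Interferon response and antigen presentation genes fell at low abundance. Of 59 genes 21 were listed (35.6%, near the 36.8% of all genes tested), and 3 of these reached 10 FPKM in either group. Of the listed genes 20 were lower, which is 33.9% of the list beside 15.1% of all genes tested. The guanylate-binding and immunity-related GTPases fell, Igtp from 3.400 to 0.409 FPKM, Irgm2 from 4.03 to 0.9400 FPKM and Gbp3 from 1.41 to 0.299 FPKM, as did Ifit3 from 1.42 to 0.207 FPKM. The class II antigen presentation genes Cd74 and H2-Aa fell from 12.5 to 3.14 and from 2.36 to 0.515 FPKM. Irf2, a repressor of interferon genes, was the riser, from 6.09 to 13.8 FPKM. The core of the interferon-stimulated response element was found on either strand in 8 of the 14 listed genes that had a promoter entry (57.1%), beside 3.99% of 27025 genes. The list was chosen for interferon response genes, so that a high share of this element may follow from that choice alone. Members of the list that were not listed were not searched, so the share is not a result about genes that fell. The 3 holders of the motif with the largest changes are shown (RefSeq, build GRCm38.p6, 5′ to 3′ on the gene's strand) with capitals for the motif, which lies on the opposite strand in Ifit3 and Gbp3.
Igtp, chr11:58199436-58199555, plus strand: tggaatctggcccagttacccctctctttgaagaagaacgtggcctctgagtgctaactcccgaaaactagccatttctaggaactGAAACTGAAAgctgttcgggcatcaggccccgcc
Ifit3, chr19:34583377-34583528, plus strand: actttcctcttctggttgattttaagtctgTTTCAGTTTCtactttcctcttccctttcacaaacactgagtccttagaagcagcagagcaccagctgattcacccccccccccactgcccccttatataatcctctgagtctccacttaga
Gbp3, chr3:142559924-142560043, plus strand: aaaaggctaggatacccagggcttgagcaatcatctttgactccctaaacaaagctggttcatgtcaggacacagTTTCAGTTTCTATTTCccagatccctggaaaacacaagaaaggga
The motif nearest the start began 34 bases before it in Igtp, 39 in Gbp3 and 122 in Ifit3, and Gbp3 held 2 overlapping copies. Irf2, which rose, also held the motif.

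Immune cell markers moved in unlike ways beside these genes. Of 24 macrophage markers 15 were listed, 3 higher and 12 lower, with a summed level of 81.9 FPKM in healthy and 62.1 FPKM in cachectic muscle. Markers of resident macrophages fell, Mrc1 from 2.04 to 0.337 FPKM, Folr2 from 3.497 to 0.429 FPKM and Lyz2 from 28.8 to 8.65 FPKM, and the receptor Csf1r fell from 3.49 to 0.652 FPKM. Cd68 and Lgals3, both also abundant in lysosome-rich cells, rose from 3.24 to 12.9 and from 5.31 to 14.7 FPKM. Class II genes and Retnla are expressed by macrophages, and the part of these cells in the interferon result was not tested. All 5 listed of 18 neutrophil markers were higher, 8.54 against 109.8 FPKM in sum. They were 27.8% of the list, beside 36.8% of all genes tested that were listed and 21.7% that were higher. S100a8 went from 3.71 to 46.2 FPKM and S100a9 from 2.06 to 13.4 FPKM, and Ly6g and Mpo were not listed. Lcn2, given above with the acute-phase genes, is on this list too, at 48.1 FPKM of the cachectic sum. Of 17 lymphocyte markers Ighm was listed, from 33.7 to 2.95 FPKM. The haemoglobin genes Hba-a1 and Hbb-b1 rose from 49.04 to 135 and from 43.6 to 115 FPKM. The whole red cell list of 10 had 3 higher and 1 lower, and these 40.0% lie near the 36.8% of all genes tested. The one that fell was Ank1, an ankyrin that muscle also makes, from 298 to 82.98 FPKM, and with it the summed level of the list was 404 FPKM in healthy and 367 FPKM in cachectic muscle. The part of blood cells in these values was not tested.

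Transcripts typical of liver were present in healthy muscle and fell. Of 56 liver and plasma genes 33 were listed, all lower, and their summed level was 325 FPKM in healthy and 49.6 FPKM in cachectic muscle. Albumin (Alb) fell from 79.5 to 8.11 FPKM, the apolipoproteins Apoa1 and Apoc3 from 28.5 to 3.39 FPKM and from 10.5 to 1.02 FPKM, transthyretin (Ttr) from 7.32 to 0.642 FPKM and the fetuin Ahsg from 20.9 to 2.62 FPKM. The falls were of like size, with 30 of the 33 between 4.08-fold and 14.0-fold; vitronectin (Vtn), Hp and Cyp2e1 fell least. Transferrin (Trf), which is also made outside liver, fell from 48.3 to 5.72 FPKM. Which of the healthy libraries held these transcripts is not seen in group values, and a carry-over of liver RNA into healthy libraries was not tested. Adipocyte markers fell in part, with Adipoq going from 2.65 to 0.201 FPKM and Cfd going from 14.1 to 2.87 FPKM, and 5 of the 6 listed of 13 were lower. Leptin and Plin1 were not listed. Of 13 Schwann cell markers 6 were listed, 5 of them lower. For the adipocyte and Schwann cell lists alike, 46.2% were listed, beside 36.8% of all genes tested, and 38.5% were lower, beside 15.1%. Of 15 intestinal epithelium markers, which could show C26m2 cells, Lgals4 rose from 3.06 to 17.1 FPKM and Krt18 fell from 0.544 to 0.1205 FPKM, and Epcam, Cdh1 and Vil1 were not listed.

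Of the 4832 listed genes 1694 were not in the 4T1 table, 1090 of them higher and 604 lower. Absence from that table is not a test of a difference, and changes in this set were smaller: the median was 1.86-fold for higher and 2.41-fold for lower genes, and 310 genes were at the smallest p-value. Of these genes 863 were abundant, 706 higher and 157 lower. The most abundant were muscle and mitochondrial transcripts already described, Tnnc2, Tpm1, Mb, mt-Rnr1 and Pdk4, with mt-Rnr2 from 1611 to 2684 FPKM. By fold, Hamp2 led, 50.8-fold, followed by 5330437I02Rik, from 0.352 to 13.4 FPKM, and Pdk4. Slc25a22, the mitochondrial glutamate carrier, rose from 7.79 to 51.1 FPKM, Ppp1r27, a phosphatase regulator, from 21.3 to 153 FPKM, and Odf3l2 from 4.42 to 38.97 FPKM. The falls were led by Dnm3os, the noncoding host of a microRNA pair of connective tissue, from 13.4 to 0.182 FPKM. Alox5ap, needed for leukotriene synthesis, fell from 26.2 to 2.63 FPKM, and Dusp14, a MAP kinase phosphatase, from 10.5 to 1.06 FPKM. Of the 12 steepest falls, 6 were on the liver and plasma list: Apoc3, Alb, Trf, Apoa1, Ahsg and Apoc1.

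**Figure D4:**
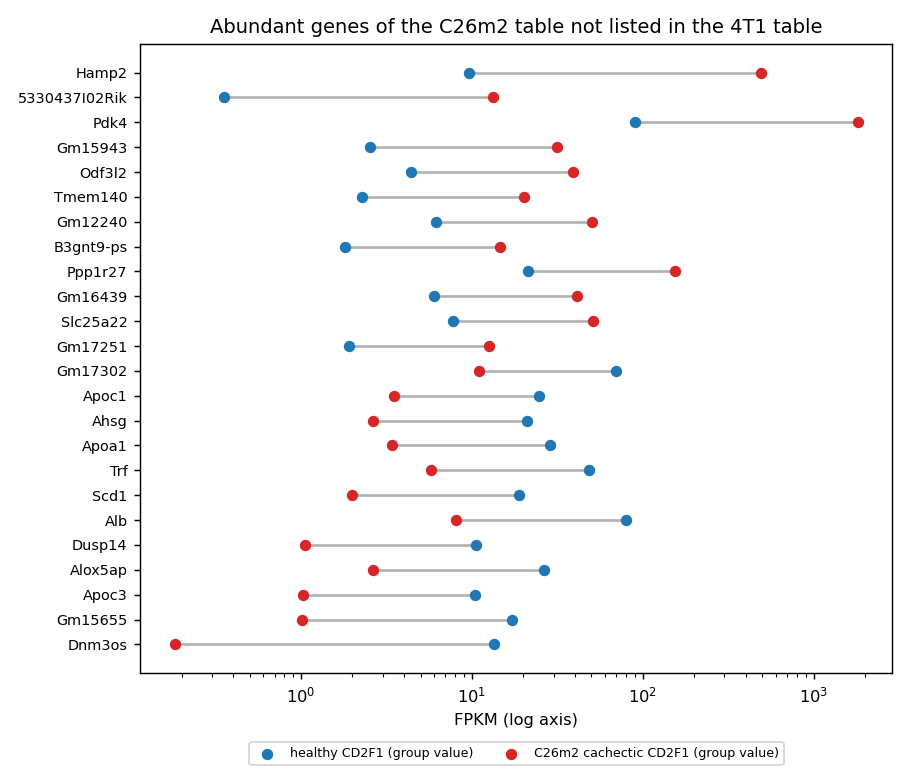
Group values in FPKM (log axis) of the 12 largest rises and 12 largest falls among abundant genes of the C26m2 table that the 4T1 table does not list, healthy CD2F1 in blue and C26m2 cachectic in red, 1 authors' value per group. Hamp2 and Pdk4 reach 492 and 1819.9 FPKM, and the falls include Alb, from 79.5 to 8.11 FPKM.

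Of all genes listed for C26m2, 35.1% were not in the 4T1 table. All 29 liver genes listed for C26m2 but not for 4T1 were lower, of 33. Of the 24 fatty acid genes 10 were not in the 4T1 table, all higher and among them Ucp3, Fabp3, Acadvl and Acadm. Of the 36 proteasome genes 12 were not, and of the 40 translation factors 13, while of the 49 ribosomal protein genes 5 were not. In fast-fibre genes 9 of 21 were not in the 4T1 table, including Cacng1 and Smtnl1, the risers. These shares were not tested.

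Of the genes listed for C26m2, 3138 were also listed for 4T1, and 3112 of them (99.2%) had the same direction. The models share no library, and strain and tumour cannot be told apart. The absolute log2 fold change was larger in 4T1 for 71.7% of shared genes, with medians of 1.36 in C26m2 and 1.61 in 4T1. Where medians are set side by side, proteasome genes changed by 1.82 in C26m2 and 1.42 in 4T1 (24 shared genes), fast-fibre genes by -2.56 and -3.48 (12 genes), and glycolysis genes by -1.54 and -2.51 (18 genes); these differences between lists were not tested. The difference between the models was tested gene by gene, from log2 fold changes and deposited p-values (normal approximation, two-sided, Benjamini-Hochberg over 3138 genes). It passed for 26 genes, which were the 26 with opposite directions, 13 higher and 13 lower in C26m2. Genes listed in both tables with opposite signs pass it nearly by construction, so that the test restates the signs. No gene of equal direction passed, although 123 had an unadjusted p under 0.05, and the test has little power for them.

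Cbx8, a chromobox protein of the Polycomb complex, differed most: it rose from 0.7595 to 25.5 FPKM in C26m2 and fell from 22.9 to 0.365 FPKM in 4T1. The difference was 11.04 on the log2 scale (SE 1.97, adjusted p = 3.07e-05 in the normal approximation, not an exact test). Zhx2, a homeobox repressor, rose from 5.17 to 10.4 FPKM in C26m2 and fell from 15.3 to 2.74 FPKM in 4T1. The slow light chain Myl3 rose from 9.43 to 16.3 FPKM in C26m2 and fell from 12.5 to 3.66 FPKM in 4T1, at the q given above. Haptoglobin (Hp), an acute-phase protein, fell from 7.79 to 2.98 FPKM in C26m2 and rose from 0.801 to 17.96 FPKM in 4T1. Of the liver list, Hp, Serpina1b and Cyp2e1 were listed in opposite directions in the models, and their healthy values were 7.79, 12.4 and 5.60 FPKM in CD2F1 beside 0.801, 1.27 and 0.520 FPKM in Balb/c, levels that come from separately normalized tables. Anxa1, an anti-inflammatory annexin, fell from 11.9 to 4.79 FPKM in C26m2, with q = 0.04201 in the authors' deposited table, and rose from 11.1 to 37.7 FPKM in 4T1.

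**Figure D5:**
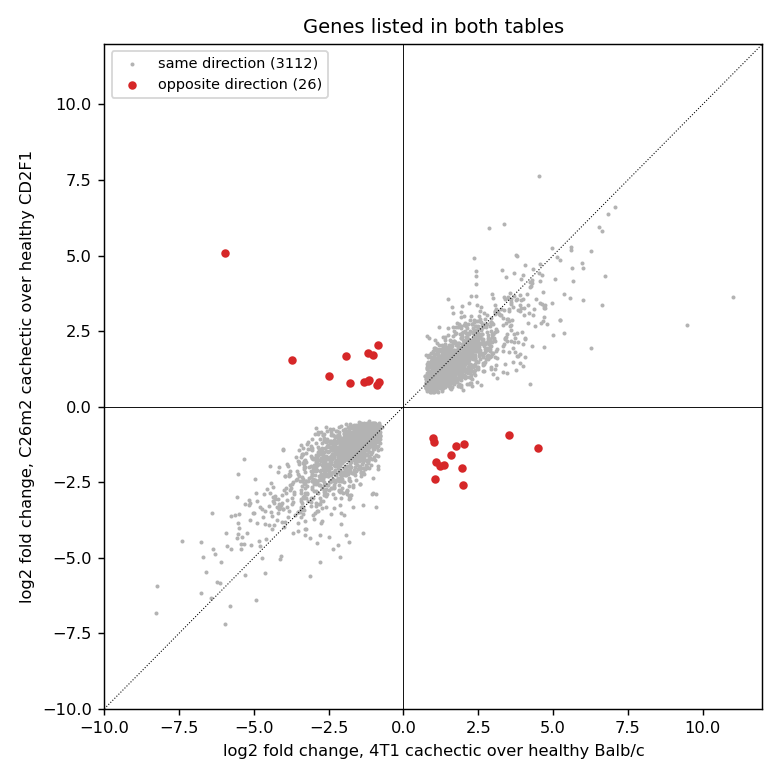
Each point is 1 of 3138 genes listed in both tables, with its log2 fold change in 4T1 (cachectic over healthy Balb/c) on the horizontal and in C26m2 (cachectic over healthy CD2F1) on the vertical axis; the dotted line marks equal change. The 26 genes in red lie in the opposite-sign quadrants, with Cbx8 at the upper left.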

How the data were processed

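Per the labels' protocols, TruSeq libraries were made from poly-A RNA of tibialis anterior. TopHat2 2.1.0, Cufflinks 2.2.1, Cuffdiff and the mouse build NCBIM37 are named in the submitters' processing notes. Not given in the sources used here are the annotation release, the normalization between libraries and the use of strand. The deposited tables list significant genes of each comparison. Their FPKM values, 1 per group, and their log2 fold changes, tumour-bearing over healthy, are the authors', per the file headers. Each p-value and q-value is likewise from the authors' Cuffdiff run, as the file headers name them. No value per library was used, so sequencing depth is unknown and no SD is given. In the C26m2 table q times rank over p gave 13117 to 13147 tested genes (median 13121), which is approximate; in the 4T1 table the median was 13218.

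Log2 fold changes were computed from FPKM with no pseudocount and lay within 1.34e-05 of the deposited ones. A gene was called when listed, at q of 0.05 or less. Gene lists (52, of which 12 are cell markers) are described by counts and medians, with no set test, and the share of genes called is that of the number tested. The members, lists and naming rule were chosen with earlier results of these data known. Named were the 12 steepest rises and falls among abundant genes (10 FPKM or more), the same among those not in the 4T1 table, the 8 largest gains and losses in FPKM, up to 4 members per list, genes that define the muscle, and the 6 largest differences each way from 4T1. Of 232 such genes 184 were at the smallest p-value. Perlecan, Hspbap1 and Eif2c1, which a symbol pattern had wrongly put among chaperones and translation factors, were taken out after values had been seen.

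For the test of a difference from 4T1, a test statistic had been planned on, which the tables do not hold. The standard error was taken as the absolute log2 fold change over the normal quantile of the deposited p-value, at most 24.7% of the change at the smallest p-value. On simulated data with the C26m2 comparison's values (13000 genes, of which 200 were shifted by a log2 of 4) it found 100% of shifted genes that turned sign, 25.4% of shifted genes of equal sign and 0.0460% of the rest; with the values of 4T1 it found 100%, 0% and 0%. Finding the genes that turned sign follows nearly by construction, since both changes had passed the threshold, and does not show that the test works. Of 4832 gene identifiers 4759 matched the reference name table. Its build, GRCm38.p6, differs from the authors', so coordinates are given only for RefSeq promoters. Python 3.11.15, pandas 2.3.3, SciPy 1.17.1 and statsmodels 0.14.6 were used. Alternatives were a q of 0.01, an absolute log2 fold change of 1, other abundance limits, a pseudocount, the smallest p-value alone, matching by symbol, and, added after the data were seen, equal sums.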

Additional observations from a re-analysis of the deposited data

Results flagged for a closer look

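Of the 26 genes that differed between the models in the test of the difference (normal approximation, Benjamini-Hochberg), the 6 largest each way are given as the log2 fold change of C26m2 minus that of 4T1. All were listed in opposite directions, so that the test restates the signs. Cbx8 differed by 11.04, Adamts8, a secreted metalloprotease, by 5.25 and Ngfr, the low-affinity neurotrophin receptor, by 3.62. Zhx2 differed by 3.49, Eda2r, a TNF receptor family member, by 2.95 and Trp53i11 by 2.89. On the other side, Hp differed by -5.87, Katnal2, a katanin-like protein, by -4.58 and the extraocular myosin Myh13 by -4.47. Cyp26b1, which breaks down retinoic acid, differed by -3.99, Serpina1b by -3.46 and Csdc2 by -3.29. Several had group values under 1 FPKM, among them Cbx8 in healthy CD2F1 (0.760 FPKM) and cachectic Balb/c muscle (0.365 FPKM), and Myh13 in healthy Balb/c muscle (0.0342 FPKM).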

How the results depend on the processing

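No count or named gene changed direction under the alternatives tried. None of these settings could turn the sign of a listed gene, by construction, so this says nothing of stability. With equal sums the median log2 fold change turned sign in 3 lists that were split by direction. Basement membrane went from 0.24 to -0.01, amino acid and nitrogen metabolism from 0.02 to -0.23, and intestinal epithelium from 0.15 to -0.10. No paired analysis was possible because the tables hold 1 value per group and no replicate numbers. Requiring an absolute log2 fold change of 1 left 1707 higher genes in all, 1121 higher and 466 lower abundant genes, and 434 higher and 400 lower genes outside the 4T1 table; of ribosomal protein genes 1 remained, of translation factors 18 and of RNA helicases 11. Genes at the smallest p-value alone numbered 1290 higher and 768 lower in all, 1031 and 416 among abundant genes, and 217 and 93 outside the 4T1 table. In the same set were 6 ribosomal protein genes, 18 translation factors, 12 helicases, 11 lower fast-fibre genes, 8 lower interferon genes and 19 lower liver genes. At q of 0.01 or less, 599 higher and 275 lower genes were left outside the 4T1 table, and 28 ribosomal protein genes; 23 of the 232 named genes were then not called. An abundance limit of 20 FPKM left 505 lower abundant genes. With 1 FPKM or more in both tables, 20 genes differed between the models, 8 of them lower in C26m2. Fewer genes pass each of these limits by construction. Matching by symbol moved no count by over 1.5 times. A pseudocount and equal sums could not move counts by direction, by construction, and so say nothing of their stability. Leaving out a library could not be done on group values, and fold changes of genes under 1 FPKM rest on few fragments, at a depth that is not known.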

Other observations

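Of 80 listed long noncoding genes 55 were higher and 25 lower (68.8% higher, beside 58.9% of all listed genes), and of 31 listed pseudogenes 22 were higher and 9 lower. The 23 antisense genes among the noncoding ones were nearly even, 12 higher and 11 lower. How many noncoding genes had been tested is not known. Host genes of small nucleolar RNAs, picked after their values were seen, were higher in all 7 listed cases, by 2.01-fold to 10.8-fold: Gas5 went from 37.7 to 307 FPKM, Snhg12 from 10.8 to 117 FPKM, Snhg3 from 22.7 to 50.6 FPKM (q = 0.0379 in the authors' deposited table) and Snhg1 from 1.67 to 8.44 FPKM. Among the noncoding genes that fell were 2310065F04Rik, from 119 to 10.9 FPKM, and Gm12319, from 146 to 19.9 FPKM.

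Solute carriers, the transporters of small molecules, were listed in 79 of 337 cases, 49 higher and 30 lower. These shares, 23.4% listed, 14.5% higher and 8.90% lower, were below the 36.8%, 21.7% and 15.1% of all genes tested. Named after their values were seen, Slc7a8 rose from 2.56 to 21.1 FPKM, Slc43a2 from 5.11 to 25.97 FPKM and Slc38a6 from 32.7 to 208 FPKM. Slc37a4, which carries glucose 6-phosphate, fell from 109 to 11.1 FPKM, and the sodium-calcium exchanger Slc8a3 from 21.0 to 1.16 FPKM. Amino acid and nitrogen genes were balanced, 11 higher and 11 lower of 40, with Got1, an aspartate aminotransferase, at 245 FPKM in healthy and 1173 FPKM in cachectic muscle, and Itgb1bp3 (now Nmrk2), which makes the NAD precursor nicotinamide mononucleotide, at 147 and 6.71 FPKM.

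Proliferation genes gave 7 listed of 30 (23.3%, below the share of all genes tested), 2 higher and 5 lower, Aurka falling from 5.39 to 0.519 FPKM. In proteasome promoters the antioxidant response element core TGACNNNGC was found in 4 of 29 (13.8%), beside 13.99% of all promoters. The glucocorticoid response element core ACANNNTGT was found in 2 of 26 promoters of FoxO and glucocorticoid targets (7.69%), beside 7.90%, and the MEF2 site in 1 of 15 of fast-fibre genes (6.67%), beside 4.23%. These windows hold the start and the bases next to it and say nothing of more distant sites.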
